A study of Mus musculus with 2 samples.

Results

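The genes described here make cholesterol and fatty acids or control that synthesis: 29 genes of the 32285 in the count tables. They were picked by symbol from the textbook pathways, and all 29 were found. The set holds 18 enzymes of sterol synthesis, 4 proteins that regulate the pathway or carry sterol (Insig1, Srebf1, Srebf2, Stard4) and 7 enzymes of fatty acid synthesis (Acly, Acaca, Fasn, Elovl6, Scd1, Scd2, Fads2). The RNA came from haematopoietic cells carrying CD90.2, a surface protein of T cells and some NK and innate lymphoid cells, sorted out of tumours of C57BL/6 mice. The 2 libraries were made with 10x Genomics 3' chemistry, 1 labelled WT and 1 labelled Dapl1-KO, a genotype lacking Dapl1, a small protein whose transcript is found in naive and memory CD8 T cells. The tumour, the age, sex and number of the mice, and the way Dapl1 was deleted were not given in the sources used here.

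With 1 library per label there was no replicate and no test. Every interval given is an exact 95% interval from the counts and covers counting error only. Each value is a CPM, counts per 1000000 UMIs, summed over the cells of 1 gate in 1 library, where a gate is a rule on marker UMIs that used none of the 29 genes. CPM values were compared between cells for the same gene or the same sum of genes, never between genes.

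There were 16673 barcodes under the WT label and 19662 under the Dapl1-KO label, and 13132 barcode sequences occurred in both. For each shared barcode the copy with at least 2 times the UMIs was kept, which left, after filters and doublet removal, 8989 and 10150 cells with medians of 7357 and 8488.5 UMIs. Dapl1 itself was read in both libraries, at 84.5 CPM under the WT label and 76.2 CPM under the Dapl1-KO label over non-cycling CD8 cells. By CD8 state (defined below) it was at 178 and 207 CPM in naive, 114 and 179 in progenitor-like and 75.7 and 77.6 in effector cells. Other CD8 cells had 62.1 and 52.5 CPM, and the remaining states 15.1 CPM or less, some higher and some lower under the Dapl1-KO label. A 3' tag outside the deleted part checks nothing, and where Dapl1 was cut the sources used here do not say, so the libraries go by their labels throughout. Xist, transcribed from the inactive X chromosome, ranged from 320 to 1183 CPM over the gates under the WT label and reached at most 1.1 CPM under the other, so Xist moved with the label; cells with Y-linked UMIs were found under both labels, and values over these alone are given below. The ribosomal protein share of UMIs was lower in activated cells, from 49.8% and 49.4% in naive CD8 cells to 37.5% and 34.4% in cycling CD8 cells (library labelled WT first, as in every pair of values below). List medians from totals without ribosomal, mitochondrial and the most counted genes are given below or in the closing section, and all 10 moved.

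CD8 cells without cycling genes were split into 8 states. Naive or central memory cells had no Pdcd1 (PD-1), Havcr2 (TIM-3) or Gzmb UMI and UMIs of at least 2 naive cell markers, among them Ccr7, Lef1 and Tcf7. Effector cells had neither checkpoint gene but Ly6c2 or Gzma. Progenitor-like cells had Pdcd1 and Tcf7 without Havcr2, PD-1 only cells had Pdcd1 without both of these, and PD-1 TIM-3 cells had both checkpoint genes, with or without Gzmk. Cells with 10 or more UMIs of granzymes D to G, and the other CD8 cells, made up the last states. Cycling cells had at least 3 of 12 cell cycle genes. Klf2 and Tox, kept out of the gates, followed the names of the naive and PD-1 TIM-3 states. Klf2, a factor of quiescent T cells, was at 1801 and 1434 CPM in naive cells. In PD-1 TIM-3 cells without Gzmk it was at 38.9 and 97.4 CPM. Tox, which T cells use in exhaustion, was at 28.6 and 19.5 against 183 and 153 CPM in the same gates. Nkg7 and Ccl5, listed as markers of CD8 cells, were not particular to them and could not check the naive CD8 gate against other lymphocytes. Their sum was 2881 and 3711 CPM in naive CD8 cells, 9041 and 14335 CPM in NK cells and 2874 and 3876 CPM in regulatory T cells. B cell genes Cd79a and Ms4a1 reached at most 0.754 CPM in any gate.

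Cholesterol is built from acetyl-CoA through the mevalonate pathway, which also gives the isoprenoids that anchor small GTPases in membranes, and then through squalene and a series of sterol intermediates. The transcription factor SREBP2, the product of Srebf2, switches these enzymes on when membrane sterol is low, while SREBP1, the product of Srebf1, acts mostly on fatty acid genes; INSIG1 holds both in the endoplasmic reticulum when sterol is plentiful. T cells are known to raise both pathways when they are activated, since each division needs new membrane, and to turn instead to efflux genes under the LXR receptors when sterol is in excess.

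Windows of 250 bases upstream of the annotated start were on hand for 23 of the 29 genes, from RefSeq on GRCm38.p6, the build of the count tables. They are shown for 3 sterol genes that were higher in PD-1 TIM-3 than in naive CD8 cells and for Elovl6, which was lower. A pair of short motifs was sought on both strands: TCACNCCAC, a form of the sterol regulatory element that SREBP binds, and CCAAT, bound by NF-Y, a factor known to act beside SREBP. Capitals mark the matches, and each sequence runs 5′ to 3′ on the gene's strand and ends at the base before the start.
Hmgcs1, chr13:119690101-119690350, plus strand: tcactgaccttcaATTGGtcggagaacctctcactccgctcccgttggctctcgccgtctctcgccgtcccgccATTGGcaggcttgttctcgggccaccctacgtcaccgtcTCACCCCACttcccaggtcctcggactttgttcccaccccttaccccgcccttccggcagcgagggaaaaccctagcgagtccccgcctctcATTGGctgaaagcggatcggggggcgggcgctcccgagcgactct
Idi1, chr13:8885356-8885605, plus strand: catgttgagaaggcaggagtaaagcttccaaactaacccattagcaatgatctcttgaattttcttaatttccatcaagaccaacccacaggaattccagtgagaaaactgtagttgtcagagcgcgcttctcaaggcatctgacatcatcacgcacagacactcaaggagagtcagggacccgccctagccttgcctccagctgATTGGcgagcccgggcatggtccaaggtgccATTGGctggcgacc
Cyp51, chr5:4104698-4104947, minus strand: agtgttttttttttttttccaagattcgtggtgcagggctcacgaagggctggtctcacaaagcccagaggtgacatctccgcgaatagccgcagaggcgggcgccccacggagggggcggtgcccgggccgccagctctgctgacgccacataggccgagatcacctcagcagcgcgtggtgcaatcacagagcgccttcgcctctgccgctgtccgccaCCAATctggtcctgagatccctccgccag
Elovl6, chr3:129532136-129532385, plus strand: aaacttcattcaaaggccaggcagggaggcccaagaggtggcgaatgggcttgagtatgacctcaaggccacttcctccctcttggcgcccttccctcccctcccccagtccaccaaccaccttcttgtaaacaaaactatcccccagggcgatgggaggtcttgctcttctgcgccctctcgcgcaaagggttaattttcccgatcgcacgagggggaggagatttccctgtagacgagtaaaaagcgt

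The sterol element was found in 1 of the 15 sterol enzyme genes with a window, Hmgcs1, where it began 137 bases before the start. It was present in 1.22% of all 27025 genes with a window. CCAAT was present in 14 of the 15 sterol enzyme genes (all but Acat2), in 3 of 3 regulator genes, and in 1 of 5 fatty acid genes, Fasn, against 37.5% of all genes. A match of one motif can share at most 1 base with a match of the other, and a match describes letters only.

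The sum of the 18 sterol enzymes spanned a wide range over the gates, and the 15 gates of at least 40 cells are ordered here; naive CD8 cells were lowest and the 3 cycling T cell gates highest in both libraries. Naive cells gave the lowest sum, 138 CPM (131 to 147) and 150 CPM (139 to 161). Effector cells without PD-1 followed at 176 and 199 CPM, with progenitor-like cells at 199 and 182 CPM and NK cells at 199 and 210 CPM. The intervals of these last 3 gates overlapped pair by pair in both libraries, so their order is not set by these counts.

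Other CD8 cells (231 and 323 CPM) and myeloid cells (207 and 321 CPM) came next, each higher in the library labelled Dapl1-KO without overlap of the intervals. Above them stood the conventional CD4 cells, at 280 and 342 CPM, and the PD-1 only CD8 cells, at 330 and 349 CPM. PD-1 TIM-3 cells were higher still, at 398 and 478 CPM with Gzmk and at 418 and 411 CPM without it. Granzyme D to G rich cells reached 382 and 482 CPM, and regulatory T cells 445 and 428 CPM. Between these 4 gates the order was not the same in the 2 libraries.

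Cycling T cells topped the order. The sum was 621 CPM (613 to 629) and 616 CPM (610 to 623) in cycling CD8 cells, 506 and 578 CPM in cycling conventional CD4 cells, and 660 and 586 CPM in cycling regulatory T cells. The cycling NK gate, left out of the order for its 11 and 21 cells, had 339 CPM (264 to 429) and 419 CPM (354 to 494). Its intervals overlapped those of regulatory T cells (421 to 470 and 406 to 451), so their order is not set by these counts. Per cell there were 21.5 and 18.8 sterol enzyme UMIs in a cycling CD8 cell against 1.11 and 1.41 in a naive one, and cycling CD8 cells also held more RNA, with medians of 30756.5 and 26247 UMIs against 7595 and 7681 in all non-cycling CD8 cells.

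**Figure D1:**
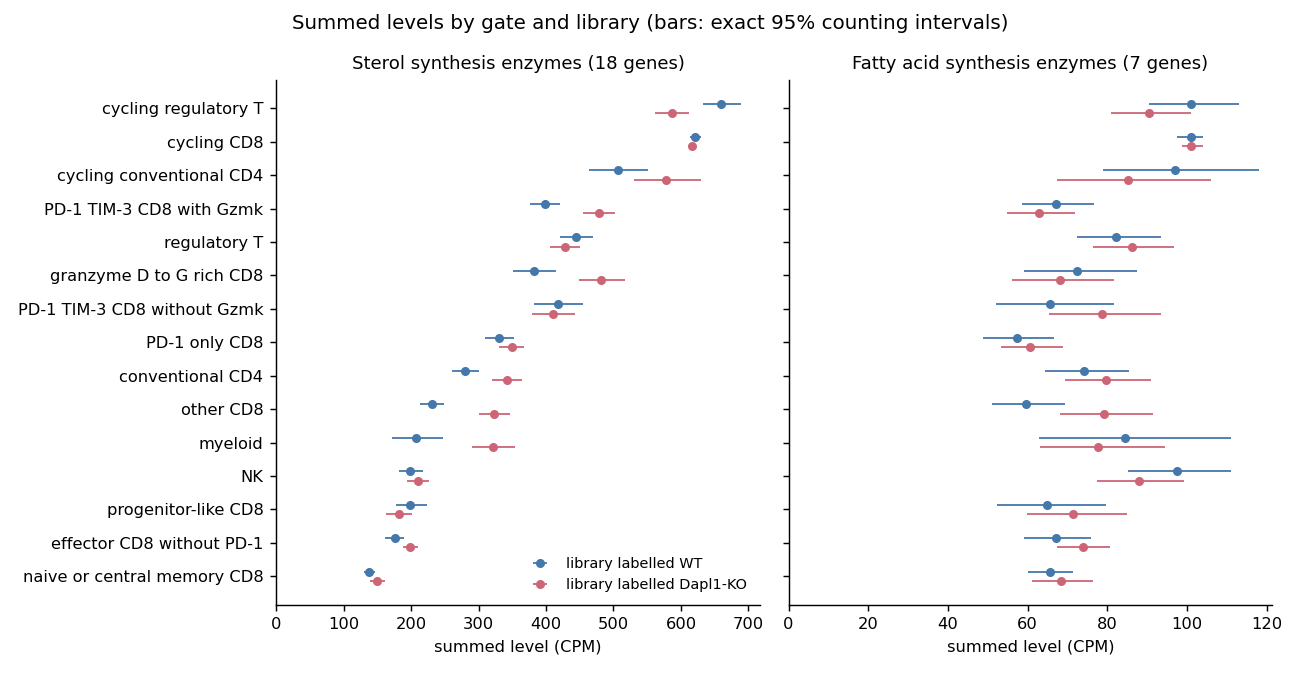
Summed CPM (horizontal axes) of the 18 sterol enzymes and of the 7 fatty acid enzymes in each of 15 gates, 1 point per library, with exact 95% counting intervals as bars. The sterol sum lies at 138 and 150 CPM in naive CD8 cells and at 621 and 616 CPM in cycling CD8 cells, while the fatty acid sum stays within a narrower range.

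The fatty acid sum moved far less. It was 65.6 and 68.4 CPM in naive CD8 cells, 57.3 and 60.7 CPM in PD-1 only cells, 97.5 and 87.9 CPM in NK cells, and 101 and 101 CPM in cycling CD8 cells. The 4 regulators together went from 71.3 and 65.8 CPM in naive cells to 136 and 129 CPM in cycling CD8 cells, and regulatory T cells had as much, at 145 and 147 CPM.

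Among resting and differentiated CD8 states, the first comparison set PD-1 TIM-3 cells without Gzmk, in which the exhaustion gene Lag3 was at 363 and 335 CPM, against naive cells, in which it was at 5.73 and 7.82 CPM. A gene was measured where its mean over both gates and libraries was at least 10 CPM, and called where it differed at least 1.5-fold the same way in both libraries. Here and in the state comparisons below, a gene could reach the minimum through the higher gate alone, which favours a call. Pmvk and Idi1 did so, as they lay under 10 CPM in naive cells. The shares over all genes rest on the same rule. All 8 of the 8 sterol enzymes measured were higher in PD-1 TIM-3 cells and 0 lower, where 29.9% of all genes were called higher and 6.05% lower. Their median log2 difference was 1.51, against 0.38 over all genes, and the summed level was 3.02 and 2.74 times that of naive cells. With no minimum on the level, 14 of the 18 enzymes were higher, but the all-gene shares above hold only for genes at the minimum or more.

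The 8 enzymes lie in the mevalonate and isoprenoid steps and in the steps from lanosterol on. Hmgcs1, which makes HMG-CoA at the entry to the pathway, was at 16.2 and 13.2 CPM in naive cells and at 43.8 and 33.7 CPM in PD-1 TIM-3 cells. Pmvk, a kinase of mevalonate phosphate, went from 6.22 and 9.34 to 34.1 and 33.7 CPM. Idi1, which isomerises the isoprene unit, went from 7.43 and 8.47 to 46.2 and 43.1 CPM, a log2 difference of 2.64 (2.09 to 3.18) and 2.35 (1.76 to 2.95). For these 3 genes both PD-1 TIM-3 values lay above both naive values.

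Further along, Fdps, which joins isoprene units to farnesyl diphosphate, rose from 12.4 and 15.4 to 34.1 and 49.9 CPM. Cyp51, the demethylase that acts on lanosterol, rose from 11 and 11.7 to 69.8 and 58.0 CPM, a log2 difference of 2.67 (2.23 to 3.11) and 2.31 (1.81 to 2.82). Msmo1, which starts removal of the next methyl groups, rose from 13.5 and 9.56 to 31.6 and 30.6 CPM. The late sterol isomerase Ebp was at 20.1 and 34.3 CPM in naive cells and at 57.6 and 74.9 CPM in PD-1 TIM-3 cells, again with no overlap between the gates. Sc5d, a late sterol desaturase, showed the smallest step of the 8, from 13.0 and 11.7 to 20.3 and 21.2 CPM, and its interval in the library labelled WT included 0 (log2 0.64, from -0.05 to 1.28).

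Sqle, the squalene epoxidase that takes the first oxygen-dependent step, was under the minimum but went from 2.8 and 2.82 to 18.7 and 11.9 CPM. Of the enzymes below the minimum, Acat2, Mvd, Lss and Tm7sf2 did not differ by 1.5-fold the same way in both libraries. Macrophage transcripts (Lyz2, C1qa, C1qb and C1qc summed) lay between 2.99 and 191 CPM in the lymphocyte gates of at least 40 cells, apart from the other CD8 cells (42.5 and 210 CPM) and 1 cycling gate given below, against 5208 and 3870 CPM in myeloid cells, and without lymphocytes that had such a UMI the sterol median was 1.57.

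Steps between neighbouring states divided the genes. Effector cells without PD-1 against naive cells showed 1 of 6 sterol enzymes higher, Sc5d, and 0 lower (all genes: 5.42% higher, 0.748% lower), with a median of 0.34 against 0.18. Cyp51 was at 17.1 and 17.0 CPM there and Idi1 at 11.2 and 11.2 CPM, both closer to naive than to PD-1 TIM-3 cells. Progenitor-like cells against PD-1 only cells, which share Pdcd1 and differ in Tcf7, showed 6 of 8 sterol enzymes lower and 0 higher (all genes: 5.42% lower, 4.48% higher), with a median of -0.999 against -0.05.

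The 6 enzymes lower in progenitor-like cells were Hmgcs1, Pmvk, Fdps, Cyp51, Msmo1 and Ebp. Cyp51 was at 18.4 and 16.0 CPM in progenitor-like cells and at 49.7 and 44.6 CPM in PD-1 only cells, a log2 difference of -1.44 (-2.10 to -0.83) and -1.48 (-2.10 to -0.91). Fdps was at 12 and 13.2 against 26.2 and 29.2 CPM. Idi1 split the libraries: in progenitor-like cells it was at 26.8 CPM under the WT label, close to its 25.6 CPM in PD-1 only cells, and at 12.7 CPM under the Dapl1-KO label, against 28.2 CPM.

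**Figure D2:**
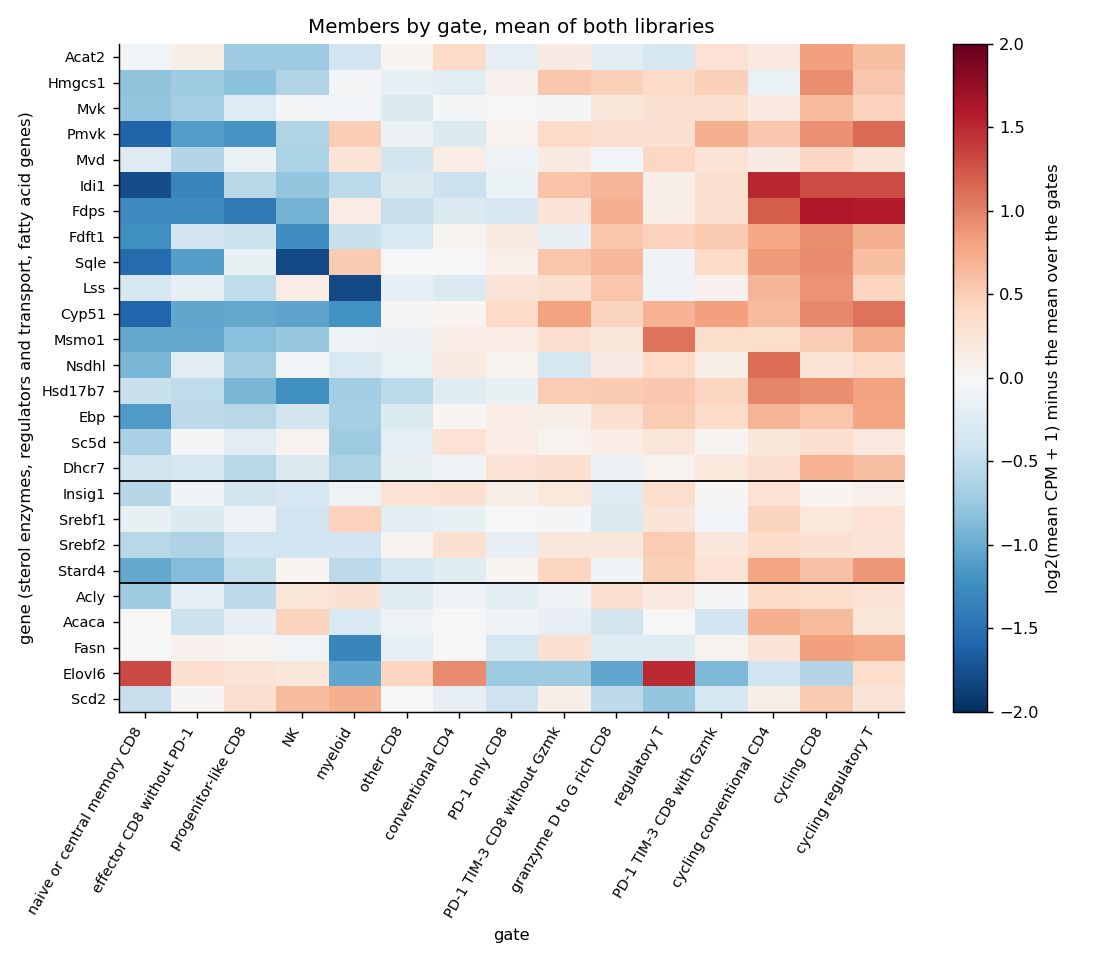
Level of each gene in each of 15 gates, shown in colour as log2 of its CPM plus 1, averaged over the libraries before the log, minus the mean over the gates; genes are in rows by role and gates in columns. Of the 18 sterol enzymes 7 are lowest in naive CD8 cells and 16 are highest in a cycling gate, and Elovl6 is higher in naive than in cycling CD8 cells. Scd1, Fads2 and Tm7sf2 had too few counts and are left out.

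Cycling CD8 cells against all non-cycling CD8 cells gave the second large step. Of 10 sterol enzymes measured, 9 were higher and 0 lower (all genes: 23.4% higher, 9.71% lower), with a median log2 difference of 1.19 against 0.21. Fdft1 and Sqle, among the 9, lay under 10 CPM in non-cycling cells and reached the minimum through cycling cells. The summed level was 2.57 and 2.12 times as high in cycling cells, with log2 values of 1.36 (1.32 to 1.40) and 1.08 (1.05 to 1.12). With no minimum, 14 of 18 were higher, a count that again has no all-gene share at its own setting. Both libraries showed the step, the larger one under the WT label. The fibroblast collagens Col1a1 and Col3a1 were at 81.7 CPM in cycling CD8 cells under that label, where 2 cells held 3001 of their 3024 UMIs, and without cells that had such a UMI the sterol median was 1.19 as before.

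Fdps showed the largest difference of the measured enzymes, from 20.6 and 29.7 to 99.9 and 118 CPM, a log2 difference of 2.28 (2.15 to 2.42) and 1.99 (1.88 to 2.10). Idi1 rose from 20 and 23.4 to 79.6 and 70.5 CPM (log2 1.995 and 1.59), and Pmvk from 16.7 and 24.1 to 46.4 and 52.5 CPM. Fdps and Idi1 act next to each other, where the isoprenoid branch leaves the pathway. Squalene synthesis and oxidation also rose: Fdft1, which makes squalene, from 6.68 and 7.87 to 15.9 and 18.2 CPM, and Sqle from 8.23 and 8.13 to 23.3 and 17.5 CPM.

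Enzymes that act on sterols rose as well. Cyp51 was at 31.1 and 33.6 CPM in non-cycling and 73.4 and 69.6 CPM in cycling cells, Msmo1 at 20.2 and 19.0 against 38.9 and 31.2 CPM, and Ebp at 38.5 and 63.4 against 81.0 and 99.3 CPM. Sc5d was the measured enzyme that missed the fold, at 18.3 and 17.8 against 28.0 and 22.5 CPM. Hmgcs1 differed in size between libraries, at 59.1 CPM in cycling cells of the library labelled WT (log2 1.37, from 1.233 to 1.501) and 43.3 CPM in the other (log2 0.88, from 0.75 to 1.01).

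The other 8 sterol enzymes were below the minimum for this comparison. Of these, Mvk, the first kinase of mevalonate, was at 5.84 and 6.68 CPM in non-cycling and 12.9 and 11.8 CPM in cycling cells. Acat2, which joins acetyl-CoA units ahead of Hmgcs1, was at 6.64 and 5.6 against 12.2 and 10.6 CPM, and Lss, which closes squalene epoxide into lanosterol, at 2.5 and 2.34 against 6.13 and 4.85 CPM. Hsd17b7, a ketosteroid reductase of the pathway, was at 4.53 and 5.91 against 11.1 and 13.3 CPM, and Dhcr7, the reductase of the last step, at 7.47 and 6.48 against 12.2 and 13 CPM. These 5 were past 1.5-fold in both libraries, while Mvd (5.84 and 6.29 against 11.1 and 8.41 CPM), Nsdhl, a sterol dehydrogenase (4.45 and 6.25 against 8.03 and 8.56 CPM), and Tm7sf2, a sterol reductase (1.47 and 1.19 against 2.08 and 2.84 CPM), were past it in 1 library each.

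Non-cycling CD8 cells hold many naive cells, so cycling cells were also set against non-cycling PD-1 TIM-3 cells, with and without Gzmk together. There the sum was 1.54 and 1.35 times as high, and the median was 0.44 against 0.04. Of 13 measured sterol enzymes 2, Idi1 and Fdps, were higher and 0 lower (all genes: 13.2% higher, 5.62% lower). The share called higher was near that of all genes. Fdps stood at 36.4 and 50.8 CPM in PD-1 TIM-3 cells (log2 difference 1.46 and 1.22) and Idi1 at 37.5 and 41.3 CPM (1.09 and 0.77). Cyp51 was nearly level, at 66.1 and 62.5 CPM, with log2 differences of 0.15 (-0.02 to 0.33) and 0.16 (-0.01 to 0.33). Fasn was the 1 of 3 measured fatty acid enzymes called higher, at 11.5 and 12.1 CPM in PD-1 TIM-3 cells.

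**Figure D3:**
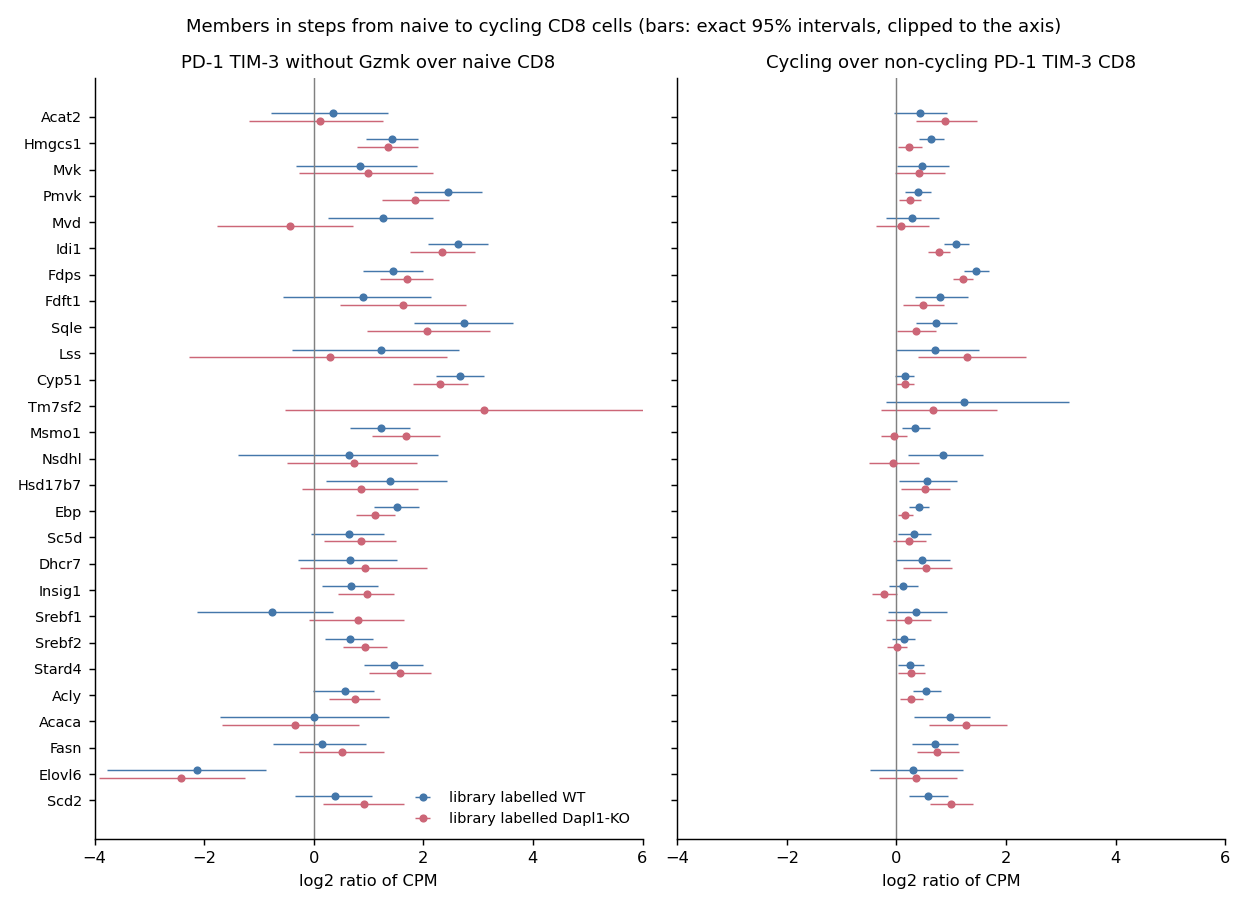
Log2 difference of each gene's CPM in each library, with exact 95% counting intervals, for PD-1 TIM-3 CD8 cells without Gzmk against naive cells (left) and for cycling against non-cycling PD-1 TIM-3 CD8 cells (right). Intervals are drawn only between -4 and 6, and Scd1 and Fads2 are left out for low counts. Cyp51 has a large step from naive cells and nearly none from PD-1 TIM-3 to cycling cells, while Fdps and Idi1 step up in both panels.

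The same pair of enzymes rose in cycling cells of the CD4 lineage. In cycling against other regulatory T cells, 3 of 12 sterol enzymes were higher (Pmvk, Idi1, Fdps) and 0 lower (all genes: 14.5% higher, 14.4% lower), with a median of 0.30 against -0.11. Fdps went from 39.8 and 37.7 to 109 and 107 CPM and Idi1 from 34.0 and 31.1 to 77.4 and 71.7 CPM. Msmo1 went down on this scale, from 61.2 and 45.8 to 48.3 and 33.4 CPM, less than the fold set for a call. In cycling against other conventional CD4 cells, 3 of 11 were higher (Idi1, Fdps, Fdft1) and 0 lower (all genes: 15.9% higher, 9.92% lower), with a median of 0.78 against 0.04. The cycling conventional CD4 gate held 61 and 50 cells, and its macrophage sum was 666 CPM in the library labelled WT against 60 CPM in the other, whose part was not tested.

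Within the cycling CD8 gate, cells with S phase genes and few mitosis genes (46 and 115 cells) had a sterol sum of 459 and 513 CPM. Cells with mitosis genes (638 and 1176 cells) had 676 and 631 CPM. The fatty acid sum was 72.6 and 83.1 against 107 and 103 CPM. The mitosis cells were also deeper, with medians of 37363.5 and 30800.5 UMIs against 21803 and 18480.

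Depth was levelled by drawing 3000 UMIs from each cell. The mean was then 0.41 and 0.439 sterol enzyme UMIs per naive cell, 1.36 and 1.03 per PD-1 TIM-3 cell without Gzmk and 1.72 and 1.75 per cycling CD8 cell. The share of cells with none fell from 67.5% and 64.2% in naive to 24.9% and 22.1% in cycling CD8 cells. Cells equal in their rate would have given 17.9% and 17.4% without a UMI in the cycling gate, and the variance was 1.47 and 1.34 times the mean there, so the spread over cycling cells was wider than counting alone would give. Cells too shallow for the draw numbered 8 and 6 among naive and 0 and 3 among cycling cells.

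Regulators and the sterol carrier showed different steps. Stard4, which moves cholesterol between membranes, moved with the enzymes: 12.6 and 11.7 CPM in naive cells, 34.9 and 35.0 CPM in PD-1 TIM-3 cells without Gzmk and 42.4 and 35.9 CPM in cycling CD8 cells. Srebf2 was at 27.8 and 28.7, 43.8 and 54.9, and 51.6 and 52.1 CPM in the same gates. Insig1, whose protein restrains SREBP and whose gene is itself an SREBP target, was at 21.3 and 18.2 CPM in naive and 34.1 and 35.6 CPM in PD-1 TIM-3 cells but no higher in cycling cells, at 32.6 and 28.9 CPM. All 3 were called higher against naive cells (all genes: 29.9%), with a median of 0.82 against 0.38 over all genes. Stard4 alone of the 3 measured was called higher in cycling against non-cycling CD8 cells (all genes: 23.4%).

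Srebf1 showed no common order, at 9.63 and 7.17 CPM in naive, 5.68 and 12.5 CPM in PD-1 TIM-3 and 9.38 and 12.6 CPM in cycling cells. Over the 9 CD8 gates, cycling included, the rank correlation with the sterol sum was 0.97 and 0.83 for Stard4, 0.90 and 0.78 for Srebf2, 0.52 and 0.40 for Insig1, and -0.33 and 0.78 for Srebf1. The 9 points of each correlation share a library and differ in depth, so these values describe the gates only.

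**Figure D4:**
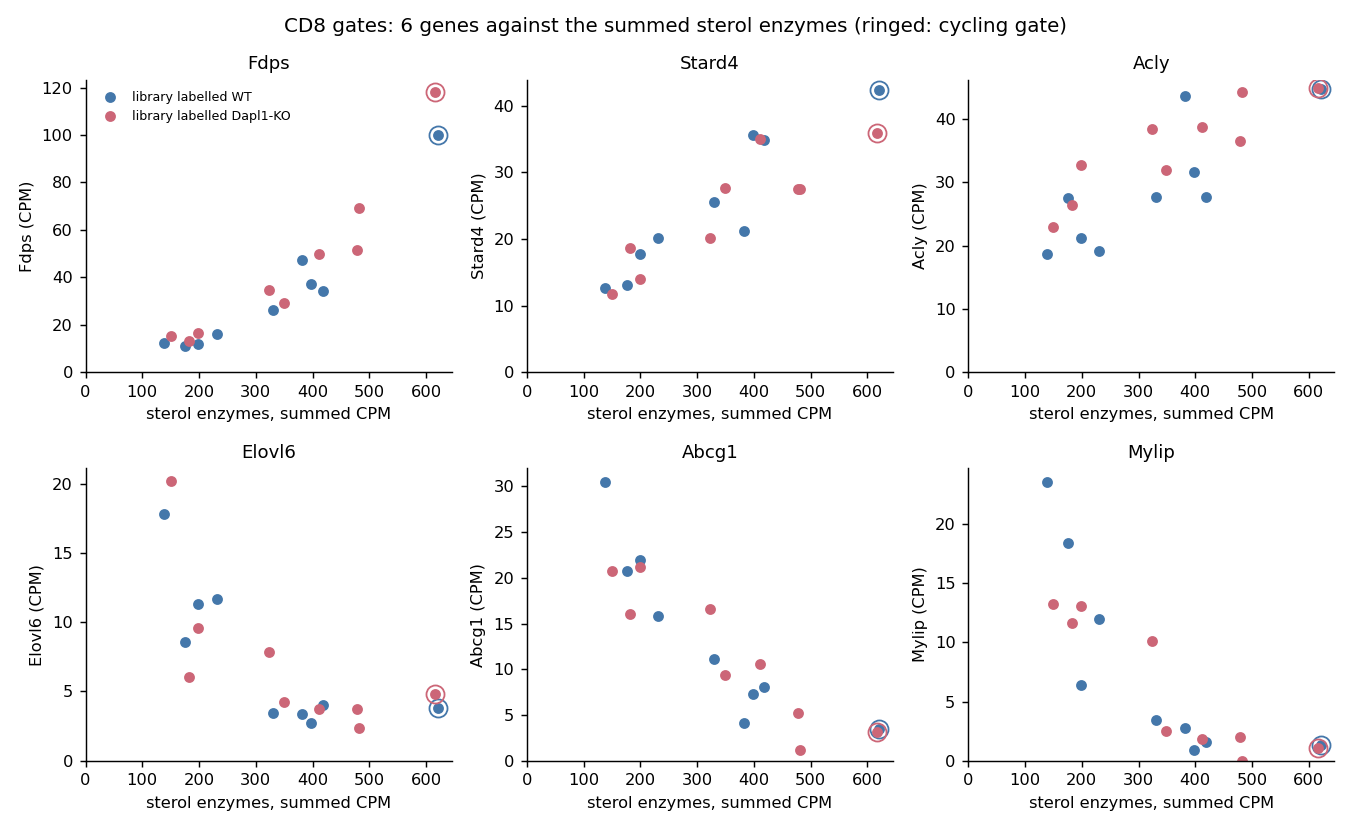
CPM of Fdps, Stard4, Acly, Elovl6, Abcg1 and Mylip (vertical axes) against the summed CPM of the 18 sterol enzymes (horizontal axes) in the 9 CD8 gates of each library, 1 point per gate, with the cycling gate ringed. Fdps is itself 1 of the 18; Stard4 runs from 12.6 and 11.7 CPM in naive cells to 42.4 and 35.9 CPM in cycling cells, and Elovl6, Abcg1 and Mylip run the other way.

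The fatty acid enzymes did not move as a group. Acly, which frees acetyl-CoA from citrate for both pathways, was closest to the sterol genes, at 18.6 and 23.0 CPM in naive, 27.6 and 38.7 CPM in PD-1 TIM-3 and 44.7 and 44.9 CPM in cycling cells (rank correlation 0.82 and 0.88). Fasn, the synthase that builds palmitate, was at 11 and 9.99 CPM in naive, 12.2 and 14.4 CPM in PD-1 TIM-3 and 18.7 and 20.1 CPM in cycling cells. Acaca, which makes the malonyl-CoA that Fasn uses, was at 4.02 and 6.3, 4.06 and 4.99, and 8.67 and 8.53 CPM. Fasn and Acaca differed by less than 1.5-fold between naive and PD-1 TIM-3 cells in each library.

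Elovl6, which lengthens palmitate, ran against the rest. It was at 17.8 and 20.2 CPM in naive cells, 8.54 and 9.56 CPM in effector cells, 4.06 and 3.74 CPM in PD-1 TIM-3 cells without Gzmk and 3.84 and 4.81 CPM in cycling CD8 cells. The log2 difference of PD-1 TIM-3 from naive cells was -2.13 (-3.78 to -0.88) and -2.43 (-3.91 to -1.26), with no overlap between gates. It also stood lower in cycling than in other regulatory T cells, at 9.72 and 8.7 against 24.1 and 18.9 CPM. Fasn and Scd2 were the 2 of 4 measured fatty acid enzymes higher there, and Elovl6 the 1 lower (all genes: 14.5% higher, 14.4% lower).

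Scd2, a desaturase that makes monounsaturated fatty acids, was at 13.7 and 8.9 CPM in naive cells, 17.8 and 16.9 CPM in PD-1 TIM-3 cells and 24.5 and 22.4 CPM in cycling cells. Its relatives Scd1 and Fads2 were nearly unread, with 16 and 14 UMIs for Scd1 and 14 and 33 for Fads2 over all gates. By calls, 2 of 3 measured fatty acid enzymes, Fasn and Scd2, were higher in cycling than in non-cycling CD8 cells (all genes: 23.4%), with a median of 0.77. In PD-1 TIM-3 against naive cells 0 of 4 were higher (all genes: 29.9%) and 1, Elovl6, was lower (6.05%). Elovl6 reached the minimum through naive cells, not through PD-1 TIM-3 cells. The summed fatty acid level differed between those gates by a log2 value of 0.00 and 0.20, with intervals that included 0.

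Regulatory T cells were set against conventional CD4 cells. Hmgcs1 and Msmo1 were the 2 of 9 sterol enzymes called higher, and 0 were lower (all genes: 8.57% higher, 3.83% lower), with a median of 0.60 against 0.11. Msmo1 was at 61.2 and 45.8 CPM in regulatory and 25.3 and 29.4 CPM in conventional cells, and Hmgcs1 at 34.7 and 34.7 against 23.0 and 22.4 CPM. Both regulatory values lay above both conventional values for each gene. Pmvk divided the libraries, with 9.8 CPM in conventional cells labelled WT and 32.0 CPM in those labelled Dapl1-KO, against 31.3 and 32.3 CPM in regulatory cells. Stard4 was called higher as well, at 37.4 and 34.4 against 20.7 and 22.4 CPM. The naive cell gene Klf2 was at 144 and 131 CPM in regulatory and 861 and 520 CPM in conventional cells, and the part of naive cells in this contrast was not tested. Il2ra, a regulatory T cell marker outside the gates, was at 115 and 152 against 35.1 and 39 CPM.

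NK cells were close to effector CD8 cells without PD-1. Of 8 sterol enzymes, 0 were called higher and 0 lower (all genes: 9.78% higher, 4.11% lower), with a median of 0.20 against 0.14. Cyp51 was at 17.1 and 16.6 CPM in NK and 17.1 and 17.0 CPM in effector cells. Stard4 did differ, at 28.6 and 24.1 against 13.1 and 14 CPM, and Acly was at 39.8 and 42.8 against 27.5 and 32.8 CPM. Klra8, an NK receptor outside the gates, was at 262 and 209 CPM in NK cells, against 7.74 and 17.3 CPM in effector CD8 cells and 14.9 and 31.4 CPM in myeloid cells.

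Myeloid cells, of which the sort left 48 and 139, were set against non-cycling CD8 cells. Pmvk and Sqle were the 2 of 9 sterol enzymes called higher, with 0 lower (all genes: 23.5% higher, 20.8% lower) and a median of 0.08 against -0.02, and the share called was near that of all genes. Pmvk was at 34.8 and 38.5 against 16.7 and 24.1 CPM and Sqle at 13.3 and 16.5 against 8.23 and 8.13 CPM. Sqle reached the minimum of 10 CPM through myeloid cells. Scd2, at 24.9 and 28.3 against 15.3 and 12.4 CPM, was the 1 of 2 measured fatty acid enzymes called higher. Myeloid cells had the lowest ribosomal protein share, 19.8% and 19.1%, and with totals that left out ribosomal, mitochondrial and the most counted genes the sterol median turned to -0.45.

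The library labelled Dapl1-KO was then set against the library labelled WT in the same gates, with a gene called at a log2 difference of 0.32 or more and measured from 10 CPM upward in at least 1 of them. In non-cycling CD8 cells, 3 of 8 sterol enzymes were higher under the Dapl1-KO label (Pmvk, Fdps, Ebp) and 0 lower, where 19.0% of all genes were higher and 10.5% lower. The median was 0.17 against 0.07 over all genes, and the summed sterol level differed by 0.27 (0.22 to 0.32) on the log2 scale.

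Ebp was at 38.5 CPM under the WT label and 63.4 CPM under the other (log2 0.72, from 0.60 to 0.84), Fdps at 20.6 and 29.7 CPM (0.53, from 0.37 to 0.70) and Pmvk at 16.7 and 24.1 CPM (0.52, from 0.34 to 0.71). Of the fatty acid enzymes 1 of 4, Acly, was higher (all genes: 19.0%), at 24.8 and 32.6 CPM (0.39, from 0.24 to 0.55). The list median was -0.03. Naive cells were 35.3% of non-cycling CD8 cells under the WT label and 16.2% under the Dapl1-KO label, and the gates were therefore compared state by state.

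Over the 8 non-cycling CD8 states the sterol sum was higher under the Dapl1-KO label in 6, with an interval above 0 in 4, and lower in 2, with no interval below 0. The log2 values ran from -0.13 to 0.48, the latter in the other CD8 cells. In that gate Klf2 was at 736 and 357 CPM and the macrophage sum at 42.5 and 210 CPM, and their part was not tested. Over the 15 gates of at least 40 cells, Pmvk and Ebp were higher under the Dapl1-KO label in 14, Nsdhl in 13 and Fdps and Acly in 12. Srebf1 and Srebf2 were higher in 11, and Tm7sf2, Hsd17b7 and Fasn in 10 each. Ebp and Nsdhl lie on the X chromosome, Pmvk and Fdps on chromosome 3 and Acly on chromosome 11. Xist marked the WT label as above, and the part of sex in these differences was not tested. Sc5d was lower in 11 gates, and Msmo1, Acat2, Dhcr7, Lss and Scd2 in 10 each. The gates of 1 library are not replicates, so these counts describe the 2 libraries.

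In cycling CD8 cells the sterol sum was level, with a log2 difference of -0.01 (-0.04 to 0.01). Of 15 measured sterol enzymes 0 were higher and 3 lower (all genes: 8.84% higher, 8.45% lower), and the median was -0.13 against 0.00. Hmgcs1 was at 59.1 and 43.3 CPM (log2 -0.45, from -0.53 to -0.37), Sqle at 23.3 and 17.5 CPM (-0.42, from -0.55 to -0.29) and Mvd, which decarboxylates mevalonate diphosphate, at 11.1 and 8.41 CPM (-0.39, from -0.59 to -0.20). Srebf1 was the 1 of 4 regulators higher under the Dapl1-KO label, at 9.38 and 12.6 CPM (0.42, from 0.24 to 0.61), and none of the 3 measured fatty acid enzymes was called. Mvd and Srebf1 reached the minimum of 10 CPM under a single label.

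These library differences moved with the cells chosen. In the subset of cells that had a Y-linked UMI but neither Xist nor Tsix, 452 and 1971 non-cycling and 137 and 1695 cycling CD8 cells, the sterol median was 0.75 in non-cycling and 0.24 in cycling cells, and Hmgcs1 and Sqle in cycling cells turned to 0.25 and 0.05. With totals that left out ribosomal, mitochondrial and the 50 most counted genes, the non-cycling median was 0.05.

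**Figure D5:**
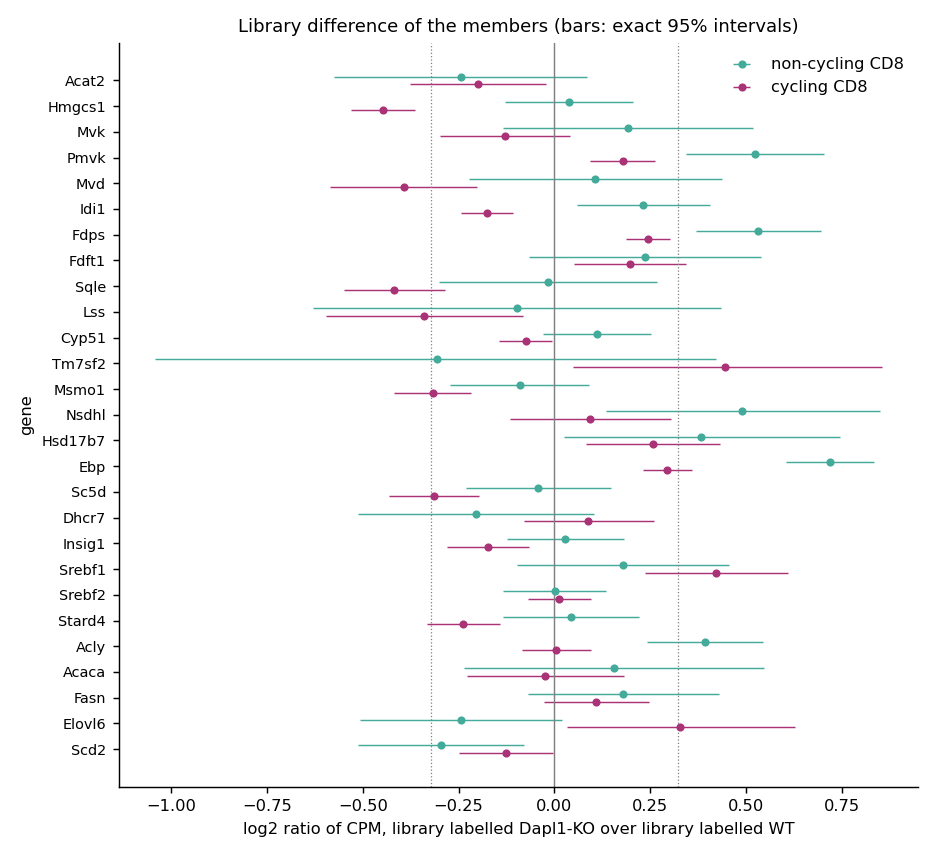
Log2 difference of each gene between the library labelled Dapl1-KO and the library labelled WT in non-cycling and in cycling CD8 cells, with exact 95% counting intervals and dotted lines at the fold set for a call. Ebp, Fdps and Pmvk lie to the right of 0 in non-cycling cells and Hmgcs1, Sqle and Mvd to the left of 0 in cycling cells. Scd1 and Fads2 are left out for low counts.

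Outside the CD8 gates, the sterol sum was higher under the Dapl1-KO label in conventional CD4 cells (log2 0.29), where Klf2 went from 861 to 520 CPM. It was also higher in myeloid cells (0.63, from 0.34 to 0.93), and lower in cycling regulatory T cells (-0.17, from -0.26 to -0.08). In regulatory T and NK cells it differed by -0.06 and 0.07. The myeloid gate, of 48 and 139 cells, differed in make-up between the libraries. Its sum of Nkg7 and Ccl5 was 673 and 2102 CPM and its macrophage sum 5208 and 3870 CPM. The sum of Tyrobp, Ctss, Fcgr3 and Lyz2 was near level, at 5654 and 5584 CPM. With depth levelled as above, the variance of sterol enzyme UMIs was 1.13 and 2.74 times the mean. The part of these differences in the myeloid value was not tested.

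Other genes of the same biology were read from lists outside the 29. Tmem97, a sterol-responsive membrane protein, was higher in cycling than in non-cycling CD8 cells, at 34.3 and 33.1 against 6.68 and 6.83 CPM. Of 6 other fatty acid and acyl-CoA genes measured in that comparison 3 were higher (all genes: 23.4%): Slc25a1, the carrier that exports citrate from mitochondria, Elovl1, which lengthens very long fatty acids, and Acsl5, which couples fatty acids to coenzyme A. Neither of the 2 measured genes of the SREBP processing machinery, Mbtps1 and Insig2, was called in either direction.

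Genes of sterol efflux, storage and LXR control formed another list. Of 4 measured in cycling against non-cycling CD8 cells 0 were higher and 2 lower, Abcg1 among them, with a median of -0.45 (all genes: 9.71% lower, median 0.21). Of 5 measured in PD-1 TIM-3 against naive cells 0 were higher and 2 lower, Abcg1 and Mylip, with a median of 0.01 (all genes: 6.05% lower, median 0.38). Abcg1, an LXR target that exports cholesterol, was at 30.5 and 20.8 CPM in naive cells and 3.51 and 3.17 CPM in cycling CD8 cells. Mylip, an LXR target that marks lipoprotein receptors for breakdown, was at 23.5 and 13.2 CPM in naive and 1.62 and 1.87 CPM in PD-1 TIM-3 cells. Mylip thus lay under the 10 CPM minimum in PD-1 TIM-3 cells, and Abcg1 in cycling cells. Over the 9 CD8 gates their rank correlation with the sterol sum was -0.92 and -0.88 for Abcg1 and -0.93 and -0.95 for Mylip.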

How the data were processed

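Single-cell UMI counts per gene and barcode were deposited by the authors for the 2 libraries; per the submitters' processing notes they came from Cell Ranger 5.0.0 on mm10 (GRCm38). Shared barcodes were kept in the library with at least 2 times the UMIs. Cells under 500 genes or over 10% mitochondrial UMIs were dropped. Doublets were removed by Scrublet score (scanpy 1.11.5) at 0.8% per 1000 cells, since its own threshold called 0 cells; 876 and 1006 were removed. Gates used raw UMIs, counts were summed per gate and library, and CPM ratios got exact 95% intervals (Python 3.11.15, numpy 2.4.6, scipy 1.17.1, pandas 2.3.3). No fold was given where both counts were 0 or, against a count of 0, where a floor of 3 counts left it open. The ratio step was tested on simulated data. Cells in no gate numbered 2972 and 2733, melanocytic cells 24 and 54, and cells with 2 cycling genes 501 and 632. The members, gates and lists were chosen with earlier results of these data known. By rule the text names all 29 members by role, with values per library for those with the largest and smallest ratios and the first enzyme of each branch, and at most 4 genes of each other list, those with the largest ratios; values of further members, Mbtps1, Insig2 and Acss2 were added after they were seen. Some items are not reported here. Depth per cell limits genes with few UMIs, as their intervals show. The closing section gives 11 planned and 3 added alternatives.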

Additional observations from a re-analysis of the deposited data

Results flagged for a closer look

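For 3 sterol enzymes the libraries differed in opposite directions in different gates, with counting intervals on opposite sides of 0; the difference between gates was not itself tested, and values are log2 ratios, Dapl1-KO label over WT label. Idi1 was 1.09 (0.54 to 1.66) in other CD8 cells, from 15.4 to 32.8 CPM, and -1.09 (-1.90 to -0.30) in progenitor-like CD8 cells, from 26.8 to 12.7 CPM. Cyp51 was 1.83 (0.32 to 3.80) in myeloid cells, from 4 UMIs to 30, and -0.53 (-0.78 to -0.28) in cycling regulatory T cells, from 91.7 to 63.6 CPM. The median of the measured sterol enzymes in cycling regulatory T cells was also -0.53, so that value was not particular to Cyp51. Msmo1 was 1.28 (0.17 to 2.58) in myeloid cells, from 8 UMIs to 41, and -0.90 (-1.63 to -0.19) in NK cells, from 18.4 to 9.84 CPM. The make-up of the myeloid gate differed between the libraries, with a macrophage sum of 5208 and 3870 CPM. Its part in the Cyp51 and Msmo1 values was not tested.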

How the results depend on the processing

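Each of the 10 list medians (mean log2 differences as in the report) was recomputed under up to 14 alternatives, 3 of them chosen after seeing the data: 79 values moved by no more than the counting interval of the summed level extends to either side (or the SD of the libraries, where larger), 44 moved further and 1 reversed, counting as reversed only a sign change of a median past the fold for a call. Smaller medians that changed sign are among those that moved: the NK and myeloid sterol medians and the library differences of cycling sterol and of fatty acid enzymes. With totals that left out ribosomal, mitochondrial and the 50 most counted genes, the library difference of sterol enzymes was 0.05 in non-cycling and -0.174 in cycling CD8 cells and that of fatty acid enzymes -0.154. The state medians then were 0.913 (cycling, sterol), 0.494 (cycling, fatty acid), 1.075 (PD-1 TIM-3), 0.429 (regulatory T), -0.04 (NK), -0.453 (myeloid, sterol) and 0.244 (myeloid, fatty acid). In the subset that had a Y-linked UMI but neither Xist nor Tsix, the library differences were 0.749, 0.235 and 0.554 in the same order, Hmgcs1 and Sqle in cycling CD8 cells turned to 0.254 and 0.051, and the PD-1 TIM-3, NK and cycling fatty acid medians were 1.847, 0.438 and 0.572; the myeloid gate then held under 10 cells and was not run.

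For the library difference of sterol enzymes in non-cycling and cycling CD8 cells, the medians were 0.1 and -0.072 with every barcode kept, 0.119 and -0.156 without doublet removal, 0.437 and -0.085 with at least 5 cycling genes, 0.109 and -0.102 with no member minimum, 0.719 (Ebp alone) and 0.052 with a minimum of 50 CPM, 0.057 and 0.007 with cells thinned to 3000 UMIs, and 0.107 and -0.156 without lymphocytes that had a macrophage UMI. The cycling value was -0.1 as a mean over cells. With 2 UMIs for each gate gene the non-cycling sterol value was 0.103, the fatty acid value 0.237, the PD-1 TIM-3 median 1.783 and the regulatory T median 0.346.

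With no member minimum the library difference of fatty acid enzymes was 0.155, the PD-1 TIM-3 median 1.26, the regulatory T median 0.417 and the myeloid fatty acid median -0.143, the last reversed over 7 genes in place of 2. Thinning gave 1.716 for PD-1 TIM-3, 0.002 for NK and 0.564 for cycling fatty acid medians. At least 5 cycling genes gave 1.478 and 0.884 for the cycling sterol and fatty acid medians, and PD-1 TIM-3 cells as reference gave 0.443 for the sterol median. The count of sterol enzymes called ran from 2 of 13 to 14 of 18 (main 9 of 10) for cycling and from 6 of 8 to 14 of 18 (8 of 8) for PD-1 TIM-3. It ran from 0 to 4 (2 of 9) for regulatory T. For the library differences it ran from 1 of 1 to 6 of 8 (3 of 8) in non-cycling and from 1 to 6 of 15 (3 of 15) in cycling cells. The number measured differed between settings, and all-gene shares are given only for the main setting and the PD-1 TIM-3 reference. Of the values of called members, 345 stayed past the fold, 49 fell short of it and 2 reversed. The cause of these moves was not tested. No paired analysis was possible because each label has 1 library. Depth limits Scd1, Fads2, Lss and Tm7sf2 and the small gates.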

Other observations

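Of 7 measured genes of efflux, storage and LXR control 6 were higher in myeloid than in non-cycling CD8 cells and 0 lower (all genes: 23.5% higher, 20.8% lower), with a median log2 difference of 2.12 against -0.02. Abca1, which loads cholesterol onto apolipoprotein, was at 104 and 85.6 CPM against 9.42 and 3.8 CPM. Abcg1 was at 64.6 and 80.1 against 19.0 and 14.5 CPM, and Soat1, which esterifies cholesterol for storage, at 136 and 131 against 20.5 and 21.5 CPM. Nr1h3, the LXR alpha gene, was at 16.6 and 26.7 against 0.318 and 0.576 CPM. Abca1 and Nr1h3 lay under the 10 CPM minimum in non-cycling CD8 cells. In naive CD8 cells Abca1 differed between the libraries, at 19.5 CPM under the WT label and 4.99 CPM under the Dapl1-KO label.

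Of 9 genes of fatty acid oxidation measured in cycling against non-cycling CD8 cells 3 were higher and 0 lower, with a median of 0.31; over all genes 23.4% were higher, with a median of 0.21, so the list lay near the background. The values that follow are of the 3 called genes, and the other 6 were within the fold. Acadl, a dehydrogenase of long-chain acyl-CoA, was at 133 and 176 against 63.1 and 91.6 CPM, and Etfb and Etfa, which take up its electrons, at 278 and 338 against 80.7 and 120 CPM and at 65.5 and 69.6 against 30.5 and 36.4 CPM. Over the 9 CD8 gates, which share their libraries, the rank correlation with the sterol sum was 0.90 and 0.97 for Acadl and 0.95 and 0.98 for Etfb. These were picked for their large ratios and do not speak for the list. Acss2, which makes acetyl-CoA from acetate, went the other way, at 15.7 and 10.2 CPM in naive and 3.11 and 2.43 CPM in cycling cells (rank correlation -0.85 and -0.85).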
